A study of Rattus norvegicus with 12 samples.

Results

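Reactive astrocyte genes are transcripts that astrocytes raise after injury, inflammation or disease of the brain. The 8 genes of the list were Gfap, Vim, Lcn2, Timp1, Cp, Gbp2, Serpina3n and S100a10, and they were found by symbol in the table of raw counts per gene. Rows were found for 7 of the 8 among 31177 rows in all, and those 7 passed the filter on low counts that left 18850 genes for testing. Serpina3n had no row under that symbol and is not analysed here. The counts came from 12 brain RNA-seq libraries in 3 groups of 4, which the submitters name AD-HFD (a model of Alzheimer's disease combined with a high-fat diet), AD (the same disease model without the diet) and Sham (the control). The labels give neither the brain region, the way the disease model was made, the age nor the strain, and a group fed the diet without the model is not analysed here. Titles and protocols speak of mice, whereas the organism is entered as Rattus norvegicus and the identifiers carry the rat prefix, so the genes are treated as rat genes. The labels do not say that the samples of a group came from separate animals, so the p-values speak only of the spread between the samples, which may be technical.

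Astrocytes supply neurons with metabolites, clear glutamate and potassium, and line the blood vessels of the brain with their end feet. When tissue is injured or inflamed they enlarge, raise their intermediate filaments and secrete proteins of the acute phase, a response driven in rodents largely by cytokines that act through STAT3 and NF-kB. Work in mice distinguished a pan-reactive set, to which Gfap, Vim, Lcn2, Timp1, Cp and Serpina3n belong, a set raised by bacterial endotoxin, to which Gbp2 belongs (called A1), and a set raised by ischaemia, to which S100a10 belongs (called A2). None of these genes is made by astrocytes alone: vascular cells and fibroblasts make Vim, Timp1 and S100a10, and neutrophils make Lcn2. In bulk tissue, fewer cells of a type and less RNA per cell cannot be told apart.

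The promoters of Lcn2, Timp1 and Gbp2 are shown because they belong to the secreted genes with the widest range of levels and to the interferon-induced gene of the list. Each is the 250 bases before the annotated gene start in RefSeq (build GRCr8), written 5′ to 3′ on the strand of the gene, and RefSeq promoters were found by symbol for 6 of the 7 measured genes, S100a10 being the exception. Lcn2 is read from the minus strand of chr3:36081781-36082030, Timp1 from the minus strand of chrX:3771123-3771372 and Gbp2 from the plus strand of chr2:234005477-234005726. Capitals mark matches to 1 of 4 short motifs searched on both strands.
Lcn2: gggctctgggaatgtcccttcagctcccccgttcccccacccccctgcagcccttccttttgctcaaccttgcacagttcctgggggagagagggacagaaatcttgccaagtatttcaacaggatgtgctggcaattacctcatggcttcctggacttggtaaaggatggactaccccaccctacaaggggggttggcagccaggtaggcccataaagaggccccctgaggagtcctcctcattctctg
Timp1: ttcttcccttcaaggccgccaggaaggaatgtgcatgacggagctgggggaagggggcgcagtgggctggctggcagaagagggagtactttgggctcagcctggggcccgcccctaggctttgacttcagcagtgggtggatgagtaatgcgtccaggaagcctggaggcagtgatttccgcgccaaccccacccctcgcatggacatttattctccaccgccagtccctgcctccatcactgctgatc
Gbp2: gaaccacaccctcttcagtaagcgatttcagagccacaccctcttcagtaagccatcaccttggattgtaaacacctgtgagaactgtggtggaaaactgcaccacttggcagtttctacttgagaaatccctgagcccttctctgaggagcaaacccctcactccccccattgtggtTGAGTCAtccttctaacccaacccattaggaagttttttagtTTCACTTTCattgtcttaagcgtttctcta
The motifs were the STAT site TTCNNNGAA, the NF-kB site GGANTTTCC, the interferon-stimulated response element GAAANNGAA and the AP-1 site TGANTCA. Gbp2 held the response element on the minus strand, at bases 30 to 22 before the start, and an AP-1 site at bases 72 to 66, and the 2 did not overlap. Of 33469 rat promoters of this length, 8.12% held the response element and 6.34% the AP-1 site, while 7.67% held the STAT site and 1.08% the NF-kB site. In the promoters of Gfap, Vim, Lcn2, Timp1 and Cp none of the 4 motifs was found, which says only that these letters were not in this window. Other forms of these sites were not searched.

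The libraries held 26668974 to 35351792 counts. Levels are given as CPM, each library's counts scaled to a common total after TMM normalization, and they compare 1 gene between libraries, not different genes with each other, since gene length was not corrected for. A name such as AD-3 gives the group and its replicate. Several libraries stood apart from their group in marker genes. AD-1, AD-2 and AD-4 held 1900, 636 and 1347 summed CPM of 8 thalamus markers, while AD-3 held 129, the AD-HFD libraries 83.7 to 112 and the Sham libraries 60.3 to 137. Summed over 8 cortex markers, the libraries ran from 506 to 1972 CPM in AD-HFD, from 82.2 to 1258 in AD, where AD-3 was the highest, and from 2326 to 2805 in Sham. AD-HFD-4 held 4207 CPM of 5 red blood cell markers and 1855 CPM of 7 endothelial markers, above all other libraries, and AD-HFD-3 was the lowest of its group in both. AD-4 held 1883 CPM of 9 hypothalamus markers, against 16.9 to 117 CPM in the other AD libraries and 2.69 to 6.23 CPM in Sham, and AD-2 held 824 CPM of 7 midbrain markers, against 6.92 to 86.4 CPM in the other AD libraries. Choroid plexus markers, 8 in all, summed to 10441 CPM in library AD-HFD-1, 553 CPM in library AD-HFD-2, 4612 CPM in library Sham-2, 4521 CPM in library Sham-3 and at most 31.4 CPM in the other 8. In AD against Sham 6 of 8 thalamus, 4 of 9 hypothalamus and 3 of 5 midbrain markers tested were called higher. There 4 of 8 cortex markers were called lower, so region content differed between AD and Sham. In AD-HFD against Sham 2 of 8 cortex markers were called lower and 2 of 9 hypothalamus markers higher, against 12.9% and 19.7% of all genes. No thalamus or midbrain marker was called there. Hypothalamus markers summed to 46.8 to 165 CPM in AD-HFD, above every Sham library, and the cortex sums lay below every Sham library. Region markers thus differed in that comparison too. Within AD, AD-3 was the highest library for all 7 measured genes. It was the lowest in thalamus and midbrain markers, but not in hypothalamus markers. The part of region, blood and vessel content in the results was not tested.

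Gfap (ENSRNOG00000002919) encodes the glial fibrillary acidic protein, the intermediate filament by which reactive astrocytes are commonly recognised. It stood at 1874, 3893, 2130 and 252 CPM in AD-HFD-1 to AD-HFD-4, at 473, 517, 2520 and 1228 CPM in AD-1 to AD-4 and at 212, 478, 470 and 368 CPM in Sham-1 to Sham-4. AD-HFD-4 lay among the Sham libraries, AD-1 lay just under the highest of them, and the other 3 AD-HFD and 3 AD libraries lay above all 4. The means were 2037 ± 1491 CPM in AD-HFD, 1185 ± 955 CPM in AD and 382 ± 124 CPM in Sham (SD, n = 4 each). Vim (ENSRNOG00000018087) encodes vimentin, the second intermediate filament of reactive astrocytes and a main filament of vascular and connective tissue cells. It stood at 685, 1221, 343 and 1390 CPM in AD-HFD-1 to AD-HFD-4, at 81.7, 100.4, 399 and 138 CPM in AD-1 to AD-4 and at 54.2, 111, 93.5 and 72.2 CPM in Sham-1 to Sham-4. All AD-HFD libraries exceeded all Sham libraries, but AD-3 exceeded AD-HFD-3, and AD-1 and AD-2 lay within the Sham range. The means were 910 ± 483 CPM in AD-HFD, 180 ± 148 CPM in AD and 82.8 ± 24.9 CPM in Sham (SD, n = 4 each). The filaments parted in AD-HFD-4, the lowest library of its group for Gfap and the highest for Vim.

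Lcn2 (ENSRNOG00000013973) encodes lipocalin 2, a secreted protein that binds iron-carrying siderophores and that astrocytes and neutrophils release in inflammation. It stood at 165, 188, 21.9 and 258 CPM in AD-HFD-1 to AD-HFD-4 and at 4.57, 2.83, 87.0 and 29.2 CPM in AD-1 to AD-4. In Sham it had 0, 2, 0 and 3 counts in Sham-1 to Sham-4, and a library with 0 counts allows up to 0.0876 CPM in Sham-1 and 0.102 CPM in Sham-3 (3 counts, for counting error only). Every library of the disease model, with or without the diet, thus lay above every Sham library, and AD-3 and AD-4 exceeded the lowest AD-HFD library, AD-HFD-3. Summed over a group, AD-HFD held 19364 counts and Sham 5, a ratio of summed CPM of 3903 (exact 95% counting interval 1672 to 12021), and AD held 3863 counts, a ratio to Sham of 783 (335 to 2412). Both intervals cover counting error only and leave out the spread between samples. The AD-HFD mean was 158 ± 99.0 CPM, the AD mean 30.9 ± 39.3 CPM and the Sham mean 0.0411 ± 0.0497 CPM (SD, n = 4 each).

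Timp1 (ENSRNOG00000010208) encodes a secreted inhibitor of matrix metalloproteinases. It stood at 258, 524, 307 and 1354 CPM in AD-HFD-1 to AD-HFD-4, at 6.96, 3.41, 418 and 35.0 CPM in AD-1 to AD-4 and at 0.847, 1.79, 1.12 and 1.84 CPM in Sham-1 to Sham-4. The 3 groups were in this order without overlap except for AD-3, which lay inside the AD-HFD range. Its means were 611 ± 508 CPM in AD-HFD, 116 ± 202 CPM in AD and 1.40 ± 0.493 CPM in Sham (SD, n = 4 each). In RefSeq Timp1 lies within the span of the neuronal gene Syn1, and whether the counting used strand is not given in the sources used here. Reads of the pair may therefore not be separable. Syn1 itself ran at 144 to 692 CPM in AD-HFD, 359 to 549 CPM in AD and 773 to 974 CPM in Sham, so that it was highest in Sham, where Timp1 was lowest. Cp (ENSRNOG00000011913) encodes ceruloplasmin, a copper-containing ferroxidase that astrocytes carry on their membrane to release iron. It stood at 104, 164, 53.1 and 166 CPM in AD-HFD-1 to AD-HFD-4, at 16.1, 25.1, 56.7 and 30.2 CPM in AD-1 to AD-4 and at 7.27, 15.1, 10.1 and 5.89 CPM in Sham-1 to Sham-4. All AD and AD-HFD libraries exceeded all Sham libraries, and AD-3 slightly exceeded AD-HFD-3. The means of Cp were 122 ± 54.0 CPM in AD-HFD, 32.0 ± 17.5 CPM in AD and 9.60 ± 4.09 CPM in Sham (SD, n = 4 each). Cp overlaps Hps3 in RefSeq, which ran at 18.6 to 23.1 CPM in AD-HFD, 16.8 to 24.2 CPM in AD and 22.3 to 26.0 CPM in Sham.

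Gbp2 (ENSRNOG00000031743) encodes an interferon-induced guanylate-binding protein, and it has close relatives in the genome with which reads could be shared. It stood at 122, 109, 25.8 and 169 CPM in AD-HFD-1 to AD-HFD-4, at 9.56, 8.90, 27.1 and 18.3 CPM in AD-1 to AD-4 and at 4.88, 6.13, 7.35 and 4.69 CPM in Sham-1 to Sham-4. All libraries of both model groups exceeded all Sham libraries, and AD-3 was the only AD library to exceed an AD-HFD library, AD-HFD-3. The Gbp2 means were 106 ± 59.6 CPM in AD-HFD, 16.0 ± 8.59 CPM in AD and 5.76 ± 1.24 CPM in Sham (SD, n = 4 each). S100a10 (ENSRNOG00000023226) encodes a small protein that forms a complex with annexin A2 at the membrane. It stood at 87.5, 87.9, 87.8 and 112 CPM in AD-HFD-1 to AD-HFD-4, at 19.5, 19.6, 150 and 46.2 CPM in AD-1 to AD-4 and at 22.8, 21.1, 23.95 and 15.3 CPM in Sham-1 to Sham-4. The AD-HFD libraries lay close together above all Sham libraries, AD-1 and AD-2 lay within the Sham range, and AD-3 was the highest of the 12. Its means were 93.8 ± 12.1 CPM in AD-HFD, 58.7 ± 61.9 CPM in AD and 20.8 ± 3.84 CPM in Sham (SD, n = 4 each).

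**Figure D1:**
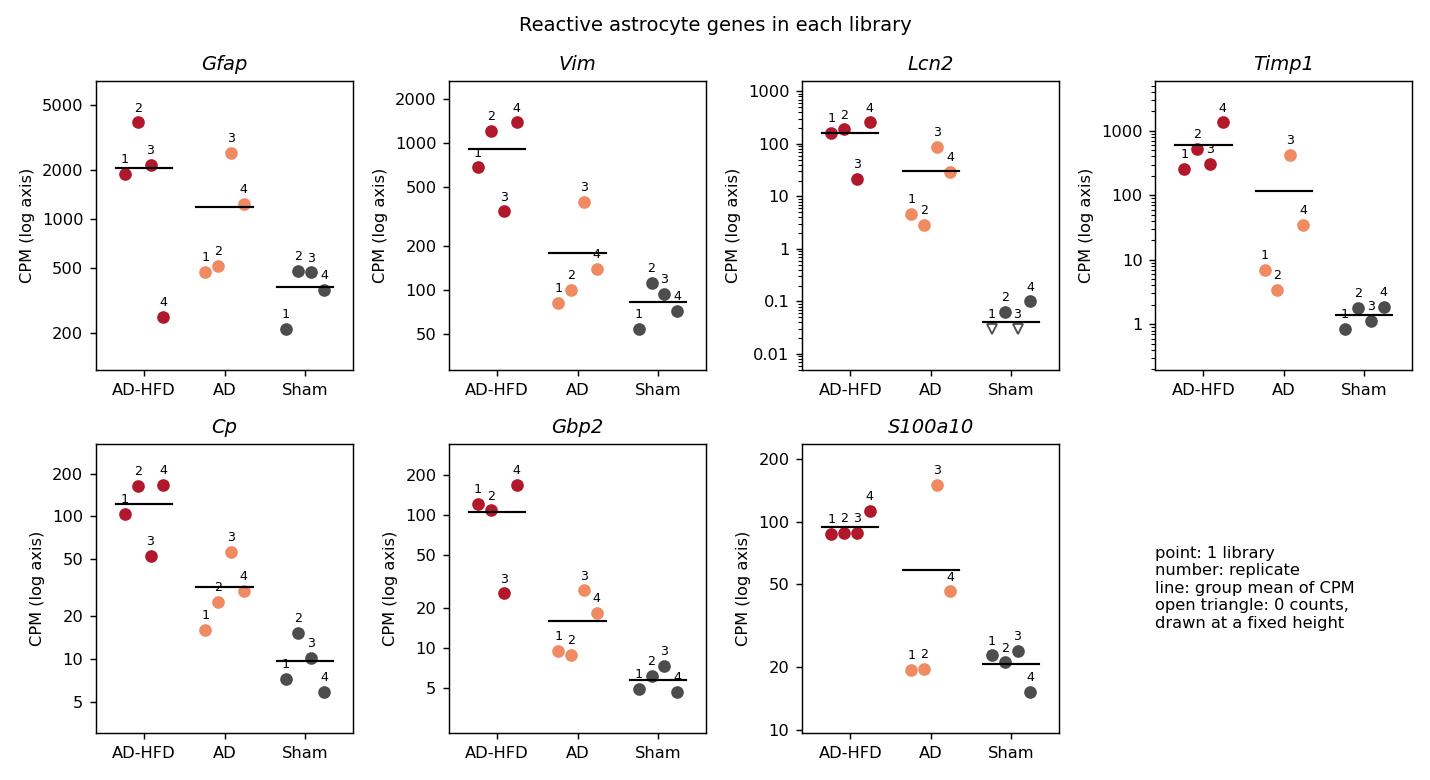
CPM (vertical log axis) of the 7 measured genes in each library, with AD-HFD, AD and Sham from left to right, replicate numbers beside the points and the mean of CPM as a line. Lcn2 and Timp1 span the widest ranges, AD-3 is the top AD library in all 7 panels, and Gfap in AD-HFD-4 lies at 252 CPM, among the Sham libraries.

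The mean level stood in the order AD-HFD, AD, Sham for all 7 genes. AD-HFD was set against Sham, which takes the disease model and the diet together. All 7 genes rose in AD-HFD, and none fell. The secreted genes Lcn2 and Timp1 had the largest log2 fold changes, at 11.81 ± 1.45 (adjusted p = 0.000493) and 8.77 ± 1.59 (adjusted p = 0.00393). For Lcn2, with 5 counts in Sham, the fitted value depends on the small prior count of the model, and the ratio of summed CPM above is the more direct measure. The interferon-induced Gbp2 rose by 4.21 ± 0.548 on the log2 scale (adjusted p = 0.00152) and Cp by 3.66 ± 0.481 (adjusted p = 0.00158), which are 18.5-fold and 12.7-fold. Vim rose by 3.46 ± 0.571 (adjusted p = 0.00308), and the smallest rises were those of Gfap, 2.42 ± 0.717 (adjusted p = 0.0247), and S100a10, 2.17 ± 0.551 (adjusted p = 0.0135). These are log2 fold changes ± SE from edgeR's quasi-likelihood test over all 12 libraries, with Benjamini-Hochberg adjustment over the 18850 genes and calls at an adjusted p under 0.05. The 7 of 7 genes called higher compare with 19.7% of all genes tested, and the 0 called lower with 12.9%. In 6 of the 7, all but Gfap, every AD-HFD library exceeded every Sham library, against 18.9% of all genes. The median log2 fold change was 3.66 over the 7 genes and 0.03 over all genes.

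Leaving out each library in turn kept the calls of Vim, Lcn2, Timp1, Cp, Gbp2 and S100a10. Gfap missed the threshold when AD-HFD-2 was left out (log2 fold change 1.85, adjusted p = 0.0743). It also missed it when Sham-1 (adjusted p = 0.0706), Sham-3 (0.0512) or Sham-4 (0.0637) was. Without AD-HFD-4, its low library, Gfap stood at 2.79 and was called, as were the other 6. That fit called 13.3% of all genes higher. Lcn2 stood at 12.62 without Sham-4, which holds 3 of its 5 Sham counts, and Timp1 at 8.02 without AD-HFD-4. With limma voom 5 of the 7 genes were called, against 16.5% of all genes called higher, and Lcn2 and Gfap were not.

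AD was set against Sham, which addresses the disease model without the diet. Lcn2, Timp1 and Cp rose in AD. Lcn2 had a log2 fold change of 9.45 ± 1.43 (adjusted p = 0.00234), Timp1 of 6.37 ± 1.46 (adjusted p = 0.0272) and Cp of 1.74 ± 0.450 (adjusted p = 0.0429) by edgeR's quasi-likelihood test. The filaments did not pass the test, with 1.63 ± 0.698 for Gfap (adjusted p = 0.179) and 1.12 ± 0.526 for Vim (adjusted p = 0.219). Neither did Gbp2, at 1.47 ± 0.503 (adjusted p = 0.101), nor S100a10, at 1.50 ± 0.541 (adjusted p = 0.118), although all 7 log2 fold changes were above 0. The 3 of 7 genes called higher compare with 3.07% of all genes tested, and the 0 called lower with 3.16%. In 4 of the 7, namely Lcn2, Timp1, Cp and Gbp2, every AD library exceeded every Sham library, against 10.3% of all genes. The median log2 fold change of the 7 was 1.63, and that of all genes 0.06.

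The size of these differences depended on AD-3. Without AD-3 the log2 fold changes in AD were 8.10 for Lcn2, 3.43 for Timp1, 1.31 for Cp, 1.09 for Gbp2, 0.95 for Gfap, 0.45 for S100a10 and 0.37 for Vim. In that fit 2 of the 7 genes, Lcn2 and Timp1, were called higher, against 5.72% of all genes. Lcn2 was called in all 12 fits that left out 1 library, with a log2 fold change of 10.27 without Sham-4. But with limma voom 0 of the 7 genes were called, against 1.39% of all genes called higher. Timp1 lost its call without any 1 of the 4 Sham libraries (highest adjusted p = 0.0896), and Cp in 8 of the 12 fits, namely without any 1 of AD-HFD-1, AD-HFD-2, AD-2, AD-3, AD-4, Sham-1, Sham-3 and Sham-4 (highest adjusted p = 0.127). Gbp2 gained a call without AD-HFD-3 (adjusted p = 0.0222).

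AD-HFD was set against AD, the only comparison of the diet within the disease model. None of the 7 genes was called in either direction by edgeR's quasi-likelihood test, beside 0.0106% of all genes called higher, and all 7 log2 fold changes were above 0. Gbp2 stood at 2.73 ± 0.509, Vim at 2.34 ± 0.545 and Cp at 1.93 ± 0.445, all with an adjusted p of 0.0605, and Lcn2 at 2.35 ± 0.806 (adjusted p = 0.0793). Timp1 stood at 2.40 ± 1.16 (adjusted p = 0.185), Gfap at 0.78 ± 0.685 (adjusted p = 0.455) and S100a10 at 0.67 ± 0.528 (adjusted p = 0.401). At an unadjusted p under 0.05 there were 4 of the 7 genes and 5751 of all genes, and DESeq2 called 3 of the 7, Cp, Gbp2 and Vim, against 8.04% of all genes that it called higher. In 0 of the 7 did every AD-HFD library exceed every AD library, against 2.72% of all genes. The median log2 fold change of the 7 was 2.34, and that of all genes 0.04.

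This comparison turned on AD-3. Without it 6 of the 7 genes were called higher, against 18.0% of all genes tested in that fit, with log2 fold changes of 5.34 for Timp1, 3.70 for Lcn2, 3.12 for Gbp2, 3.09 for Vim, 2.36 for Cp and 1.72 for S100a10. Gfap stood at 1.46 without AD-3 and was not called (adjusted p = 0.13). The AD libraries kept in that fit, AD-1, AD-2 and AD-4, held 636 to 1900 summed CPM of thalamus markers, against 83.7 to 112 in AD-HFD. For cortex markers they held 82.2 to 244 summed CPM, against 506 to 1972 in AD-HFD. The fit without AD-3 thus also compared unlike region content, whose part in these calls was not tested. Timp1 stood at 1.65 without AD-HFD-4. Without AD-HFD-3, the library of its group with the lowest Vim, Lcn2, Cp and Gbp2, those 4 genes were called higher, against 14.8% of all genes, and in the other 10 fits that left out 1 library none was. Each group enters 2 of the 3 comparisons, so the 3 sets of values share libraries and are not independent.

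**Figure D2:**
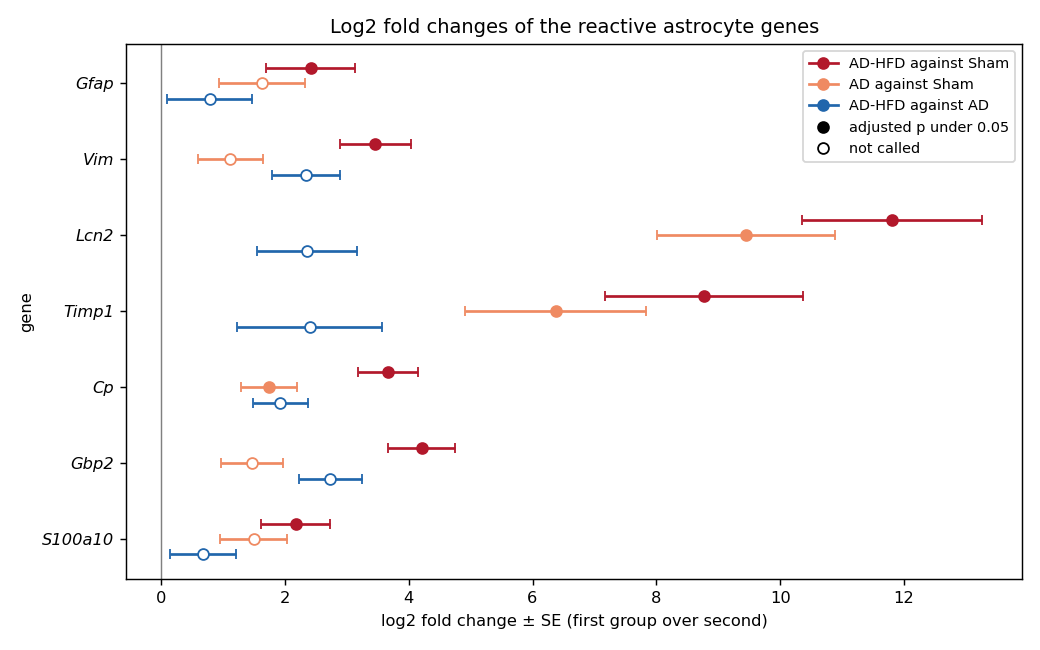
Log2 fold changes ± SE (horizontal axis) of the 7 genes in the 3 comparisons, filled where the adjusted p is under 0.05. All points lie right of 0, all 7 are filled for AD-HFD against Sham, Lcn2, Timp1 and Cp for AD against Sham, and none for AD-HFD against AD.

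**Figure D3:**
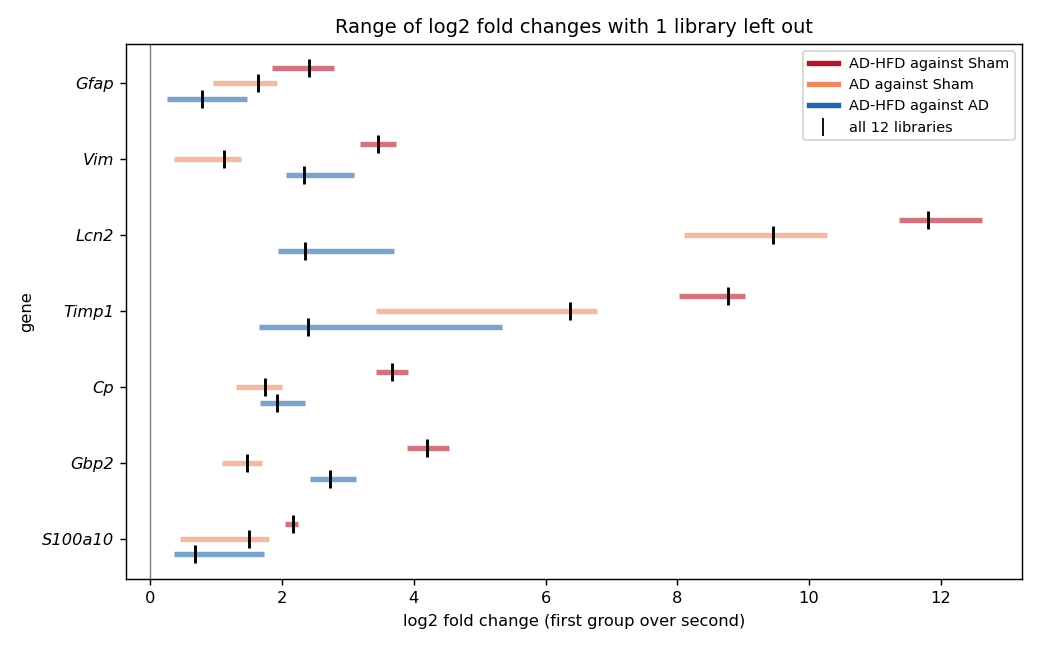
The lowest to highest log2 fold change (horizontal axis) of each gene over the 12 fits that each left out 1 library, with the value from all 12 libraries as a tick. Timp1 has the widest bars, 3.43 to 6.78 for AD against Sham and 1.65 to 5.34 for AD-HFD against AD, and no bar crosses 0.

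The same libraries tended to lead their group in 1 gene after the other. AD-3 was the highest AD library for 7 of 7 genes, and AD-HFD-4 the highest AD-HFD library for 6 of 7. As folds of the Sham mean, AD-3 stood at 2119 for Lcn2, 299 for Timp1, 7.19 for S100a10, 6.60 for Gfap, 5.90 for Cp, 4.82 for Vim and 4.71 for Gbp2. Set against the AD-HFD libraries, AD-3 lay within their range for 6 genes and above it for S100a10. AD-1 and AD-2 lay below that range for 6 genes and within it for Gfap, and AD-4 lay below it for 5 and within it for Gfap and Lcn2. AD-1 exceeded all Sham libraries in 4 of the 7 genes, AD-2 in 5, and AD-3 and AD-4 in 7. In AD-HFD-4 the folds of the Sham mean were 6269 for Lcn2, 967 for Timp1, 29.3 for Gbp2, 17.3 for Cp, 16.8 for Vim and 5.38 for S100a10, but 0.660 for Gfap. AD-HFD-4 was thus the one library of the disease model in which Gfap lay below the Sham mean.

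The spread within groups differed between the genes. In AD-HFD the SD was 12.9% of the mean for S100a10 and 83.2% for Timp1, the lowest and highest of the 7. In AD it was 53.8% for Gbp2 and 54.6% for Cp but 105% for S100a10, 127% for Lcn2 and 174% for Timp1. In Sham, apart from the near-absent Lcn2, it ran from 18.5% for S100a10 to 42.6% for Cp.

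**Figure D4:**
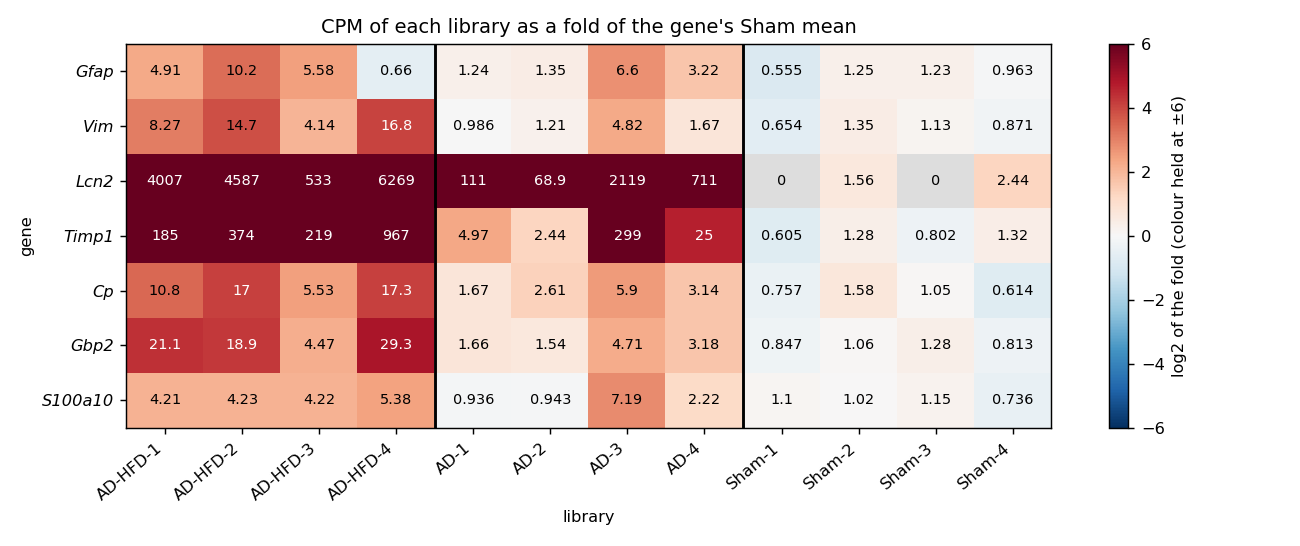
CPM of each gene (down the page) in each library (across, AD-HFD, AD, then Sham) as a fold of the gene's Sham mean, with the fold printed in each cell, the colour on a log2 scale and grey for 0 counts. AD-3 lies within the AD-HFD range for 6 of the 7 genes, and Gfap in AD-HFD-4 has a fold of 0.66.

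The genes did not share 1 profile over the libraries. The root mean square difference of log2 CPM over the 12 libraries, each gene centred on its own mean, was smallest for the pairs Vim and Cp (0.42), Vim and Gbp2 (0.46) and Cp and Gbp2 (0.49). Gfap was nearest to S100a10 (1.04) and Lcn2 to Timp1 (1.49), and Lcn2 and Gfap were the farthest pair (3.79). Among 13141 other named genes with a mean of at least 1 CPM, the closest profiles to Gfap were Sox11 (0.63), Col16a1 (0.65) and Ssc5d (0.66). Closest to Vim were Cnn2 (0.25), Flna (0.28) and Serping1 (0.35), and to Cp were Mocos (0.33), Fcgr1a (0.37) and Fcgr2b (0.38). C5ar1 (0.28), Cd68 (0.32) and Anxa1 (0.37) came closest to Gbp2, and Trib1 (0.20), Tnip2 (0.25) and Chsy1 (0.26) to S100a10. For Timp1 these were Il11 (0.58), Lif (0.80) and Cxcl1 (0.80), and for Lcn2, whose nearest genes lay farther away, Ccl3 (1.18), Msr1 (1.22) and Spp1 (1.33). These distances describe 12 libraries that share their group differences.

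Other genes of the same mouse-defined sets also rose. Of 25 further pan-reactive, A1 and A2 genes tested, 20 rose in AD-HFD against Sham and 0 fell. Among all genes 19.7% were called higher in that comparison and 12.9% lower. All 7 of the pan-reactive genes rose, with a median log2 fold change of 4.78, among them Osmr, the receptor subunit for oncostatin M, by 4.98 ± 0.840 (adjusted p = 0.00322), and the heat shock protein gene Hspb1, at 406 ± 178 CPM in AD-HFD and 4.98 ± 1.54 CPM in Sham (SD, n = 4; log2 6.35 ± 1.22, adjusted p = 0.00454). The chemokine gene Cxcl10 (3.56 ± 0.656) and Aspg (5.35 ± 1.14) rose as well. Of the A1 set 7 of 9 listed genes were tested and 5 rose, with a median of 2.56, including Ggta1 (2.56 ± 0.478), the immunoproteasome subunit Psmb8 (2.65 ± 0.515), Fbln5 (3.49 ± 0.677) and the proteoglycan gene Srgn (2.56 ± 0.507). Of the A2 set 8 of 11 rose, with a median of 4.43, including the endotoxin co-receptor Cd14 (6.61 ± 1.06), Tgm1 (5.10 ± 1.06), Emp1 (4.51 ± 0.884) and Tm4sf1 (3.40 ± 0.712). Another of the 8, Clcf1, lost its call in 7 of the 12 fits that left out 1 library. Without AD-HFD-4 the log2 fold changes were 2.35 for Fbln5, 1.81 for Srgn, 4.36 for Tgm1, 3.86 for Emp1 and 2.40 for Tm4sf1, all still called. Genes of both the A1 and the A2 set thus passed the test in AD-HFD, as did Gbp2 and S100a10.

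In AD against Sham 5 of these 25 genes rose and 0 fell: Hspb1 (log2 5.46 ± 1.17) and Osmr (3.13 ± 0.802) of the pan-reactive set, none of the A1 set (median 0.76), and Cd14 (4.89 ± 1.00), Ptx3 (7.06 ± 1.69) and Sphk1 (3.67 ± 0.952) of the A2 set (median 2.43). Among all genes 3.07% were called higher there and 3.16% lower. Without AD-3 the log2 fold changes were 3.17 for Hspb1, 3.80 for Cd14 and 3.16 for Ptx3, all still called, and 1.83 for Osmr (adjusted p = 0.0632) and 1.72 for Sphk1 (adjusted p = 0.0533), which were not. That fit called 4 of the 25 genes higher, against 5.72% of all genes, and 1, Ptgs2, lower, at -2.66 (adjusted p = 0.00582). The count was 8 without AD-1 and 3 without either of AD-HFD-1 and AD-HFD-2 or without AD-4. It was 1 when Sham-2 was left out and 0 when any other 1 Sham library was. In AD-HFD against AD 0 of the 25 were called by edgeR's quasi-likelihood test, while 11 were higher and 1 lower at an unadjusted p under 0.05 and DESeq2 called 7 higher. The medians there were 1.28, 1.80 and 0.87 in the pan-reactive, A1 and A2 sets. Leaving out AD-3 turned the edgeR count into 20 higher and 1 lower, and leaving out AD-HFD-3 into 9 higher. Of all genes 18.0% were called higher without AD-3, 14.8% without AD-HFD-3 and 8.04% by DESeq2, against 0.0106% in the fit over all 12 libraries.

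The cytokines that induce astrocyte reactivity, their receptors and the STAT3 and NF-kB genes downstream were read from a list of 16 genes, of which 14 were tested. In AD-HFD against Sham 13 rose and 0 fell, against 19.7% and 12.9% of all genes, with a median log2 fold change of 2.85. Among the 13, Cntf lost its call in 10 of the 12 fits that left out 1 library, and Jak2 in 8. Il1b, the gene of interleukin 1 beta, stood at 8.12 ± 5.38 CPM in AD-HFD and 0.179 ± 0.0670 CPM in Sham (SD, n = 4; log2 5.49 ± 0.819, adjusted p = 0.00194). C1qa, a complement subunit made by microglia, rose by 1.55 ± 0.199 (adjusted p = 0.00152). Socs3, a feedback inhibitor and target of STAT3, rose by 7.66 ± 1.15 (adjusted p = 0.0023), and Il6, which had 6 counts over the Sham libraries, by 8.53 ± 1.45 (adjusted p = 0.00206). Il6 stood at 7.61 without AD-HFD-4 and at 12.18 without Sham-1, called in both. In AD against Sham 5 rose: Socs3 (6.10 ± 1.11), Lif (7.30 ± 1.55), C1qa (0.85 ± 0.196), Stat3 (1.59 ± 0.375) and Il1b (3.54 ± 0.871), with a list median of 1.32. Among all genes 3.07% were called higher there. Without AD-3 the log2 fold changes were 4.46 for Socs3, 4.24 for Lif and 1.00 for Stat3, all still called, and 2.56 for Il1b, which was not (adjusted p = 0.0576). Without any 1 Sham library Socs3 alone was called, with Lif at 8.68 without Sham-1, and without AD-4 the count was 3. In AD-HFD against AD 0 of the 14 were called by edgeR's quasi-likelihood test, while 9 were higher at an unadjusted p under 0.05 and DESeq2 called 5. The edgeR count was 13 without AD-3, against 18.0% of all genes called higher, and 8 without AD-HFD-3, against 14.8%. DESeq2 called 8.04% of all genes higher.

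Genes whose products act with those of the list were read as partners, 13 genes in 14 table entries. In AD-HFD against Sham 10 entries rose and 1 fell, against 19.7% and 12.9% of all genes. Of the targets of Timp1, the stromelysin gene Mmp3, with 4 counts over the Sham libraries, rose by 7.88 ± 1.10 on the log2 scale (adjusted p = 0.00137). Anxa2, the partner of S100a10, stood at 321 ± 275 CPM in AD-HFD and 14.4 ± 4.72 CPM in Sham (SD, n = 4; log2 4.48 ± 0.729, adjusted p = 0.0029). Cd63, a membrane protein that binds Timp1, rose by 2.81 ± 0.518, and Nes, the filament nestin that assembles with vimentin, by 4.85 ± 0.919. Slc22a17, a receptor for Lcn2, fell by 0.99 ± 0.283 (adjusted p = 0.0214), a call lost without AD-HFD-1, AD-HFD-2, Sham-1 or Sham-3. Mmp3 stood at 6.94 without AD-HFD-1 and 11.05 without Sham-3, and Anxa2 at 3.69 without AD-HFD-4, all still called. The count of 10 became 6 without AD-HFD-4 or without Sham-4. In AD against Sham only Heph, a ferroxidase related to Cp (2.56 ± 0.564), and Lrp2, an endocytic receptor for Lcn2 (1.96 ± 0.498), rose, against 3.07% of all genes. Both calls were lost without any 1 of AD-1, AD-2, AD-4 and the 4 Sham libraries, and that of Lrp2, at 1.27 without AD-2, also without AD-HFD-1 or AD-HFD-2. In AD-HFD against AD 0 entries were called by edgeR's quasi-likelihood test, while 6 were higher and 2 lower at an unadjusted p under 0.05 and DESeq2 called 4 higher and 1 lower. Leaving out AD-3 gave 8 higher and 1 lower there, and leaving out AD-HFD-3 gave 4 higher and 2 lower. Those fits called 18.0% and 14.8% of all genes higher, and DESeq2 called 8.04%.

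Of 13 homeostatic astrocyte genes, which here also serve to show that astrocyte RNA was present in every library, 1 rose and 1 fell in AD-HFD against Sham, with a median log2 fold change of -0.26. Among all genes 19.7% were called higher there and 12.9% lower. Glul, glutamine synthetase, rose by 0.98 ± 0.220 (adjusted p = 0.00813), and the glutamate transporter gene Slc1a2 fell by 0.82 ± 0.274 (adjusted p = 0.0394). The fall of Slc1a2 was not called without any 1 of AD-HFD-1, AD-HFD-2, AD-HFD-4, AD-2 and the Sham libraries. In AD against Sham 0 of the 13 were called by edgeR's quasi-likelihood test (median 0.40), while 3 were higher at an unadjusted p under 0.05 and DESeq2 called 1. In AD-HFD against AD 0 were called by the same test (median -0.55), while 6 were lower at an unadjusted p under 0.05 and DESeq2 called 5. Leaving out AD-3 gave 4 called higher in AD against Sham, 7 called lower in AD-HFD against AD and 6 called lower in AD-HFD against Sham. Leaving out AD-HFD-3 gave 1 called higher in AD against Sham, and 1 higher and 2 lower in AD-HFD against AD. Their summed level ran from 5162 to 7984 CPM in AD-HFD, from 5911 to 11249 CPM in AD and from 5937 to 6483 CPM in Sham. The sum hid differences between the genes. In AD-HFD-4 it was 7163 CPM, of which Glul made up 3239 CPM. That library was the lowest of all for Aqp4 (142 CPM, against 321 to 660 CPM in the others). It was also the lowest for Slc1a3 (340 against 514 to 733 CPM) and Slc1a2 (19.5 against 30.5 to 70.6 CPM). The rest of the 13 were lower in at least 1 other library. Whether this bears on the low Gfap of AD-HFD-4 was not tested.

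Markers of other cells moved beside the reactive genes in AD-HFD. For comparison, 19.7% of all genes were called higher and 12.9% lower in AD-HFD against Sham, and 3.07% higher in AD against Sham. The 9 peripheral leukocyte markers summed to 571, 364, 141 and 1098 CPM in AD-HFD-1 to AD-HFD-4, to 82.1, 88.0, 216 and 120 CPM in AD-1 to AD-4 and to 39.4 to 55.5 CPM in Sham, and of 8 tested 7 rose in AD-HFD against Sham and 4 in AD against Sham. The 7 endothelial markers summed to 216 to 1855 CPM in AD-HFD, 199 to 291 CPM in AD and 152 to 208 CPM in Sham, with 5 of 6 tested higher in AD-HFD against Sham. Cldn5, which was not tested, stood at 0 in every library of the 3 groups but AD-HFD-1 (9.43 CPM) and AD-2 (4.38 CPM). The 5 red blood cell markers summed to 253 to 4207 CPM in AD-HFD, 271 to 611 CPM in AD and 159 to 361 CPM in Sham, and all 5 rose in AD-HFD against Sham. AD-HFD-4 was the highest library in all 3 lists and in Lcn2, Timp1, Cp, Gbp2 and Vim, and AD-HFD-3 was the lowest AD-HFD library in all 3 lists and in Vim, Lcn2, Cp and Gbp2. AD-3, the AD library with the highest level of all 7 reactive genes, was also the highest AD library in these 3 lists. The 8 neuron markers summed to 1669 to 7179 CPM in AD-HFD, 5686 to 6831 CPM in AD and 8164 to 10372 CPM in Sham, and 5 of 8 fell in AD-HFD against Sham. The 7 microglia markers ran from 281 to 495 CPM in AD-HFD, from 225 to 346 CPM in AD and from 199 to 228 CPM in Sham, with 4 of 7 higher and 1 lower in AD-HFD against Sham. The 9 leptomeningeal fibroblast markers summed to 118 to 715 CPM in AD-HFD, 43.0 to 120 CPM in AD and 74.9 to 520 CPM in Sham, and 5 of the 9 rose in AD-HFD against Sham. The part of these cells in the levels of the reactive genes was not tested. Without AD-HFD-4, the 7 reactive genes were all called in AD-HFD against Sham, against 13.3% of all genes called higher. The log2 fold changes there were 8.02 for Timp1, 3.89 for Gbp2 and 3.18 for Vim. That fit kept AD-HFD-1 and AD-HFD-2, at 1138 and 798 CPM of red blood cell markers. It therefore cannot separate the reactive genes from blood and vessel content.

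**Figure D5:**
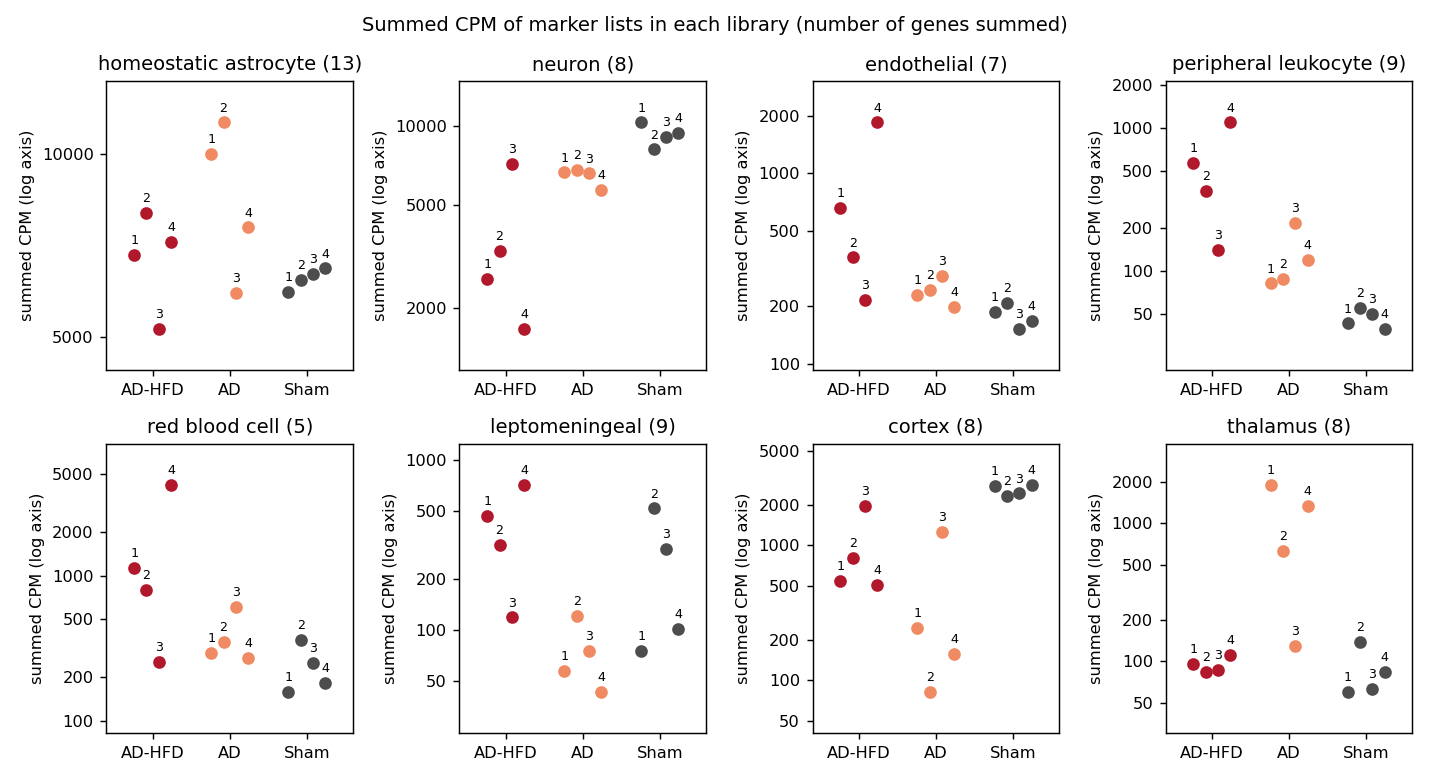
Summed CPM (vertical log axis) of 8 marker lists in each library, with AD-HFD, AD and Sham from left to right and replicate numbers beside the points. AD-HFD-4 tops the endothelial, leukocyte and red blood cell panels and is lowest for neurons, and AD-3 lies at 129 CPM in the thalamus panel, against 636 to 1900 CPM in the other AD libraries.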

How the data were processed

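RNA from 12 brain samples was sequenced, 4 in each of the AD-HFD, AD and Sham groups, as their titles say. Extraction used TRIzol and library preparation a dual-mode mRNA kit from Yeasen, per the labels' protocols. FastQC and Trimmomatic are named, without versions, in the submitters' processing notes. The aligner, counting program, strand setting, build and annotation are not given in the sources used here.

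The authors deposited raw counts per gene. Analysis used edgeR 4.0.16 in R 4.3.3. The filter filterByExpr, given the groups, left 18850 of 31177 genes, which were scaled by TMM and fitted by quasi-likelihood with 1 mean per group over all 12 libraries. The SE is the log2 fold change divided by the square root of F, and the common dispersion had a square root of 0.415. Log2 CPM for distances used a prior count of 2. No pair of libraries agreed within sampling noise, and total counts per library limit precision only for the lowest genes, as counting error. The fit was tested on simulated counts in AD against Sham, AD-HFD against AD and AD-HFD against Sham. In that order it recovered 14, 16 and 23 of 100 genes changed 2-fold, and 87, 84 and 81 of 100 changed 4-fold. Most 2-fold changes were thus missed in the simulation. The simulated counts were drawn gene by gene at the trended dispersion, without the region and blood differences between the libraries. Recovery in the real counts may therefore be lower.

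The genes and lists were chosen with earlier results of these data known, so no list is independent evidence. The genes named were all measured members, up to 4 genes called per list and comparison by smallest p, and the 3 nearest profiles per member. Il1b in AD against Sham, Ptgs2, Slc22a17, Clcf1, Cntf, Jak2, Aqp4, Slc1a3 and Cldn5 fall outside that rule and were named after their values were seen. No pairing of the samples by replicate number was seen, and they were treated as unpaired. The alternatives were DESeq2 1.42.0, limma voom (limma 3.58.1), other scalings and filters, a fit on the compared groups alone, a stricter limit, the legacy method, a replicate block and libraries left out. List counts under them were added after seeing the data. Promoters came from RefSeq GRCr8.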

Additional observations from a re-analysis of the deposited data

Results flagged for a closer look

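In 21 sets of 4 values (7 genes in 3 groups) the library farthest from the others was compared with the range of its group by Dixon's test at the 95% level, which chance passes in about 1 set of 20. It passed in 2. Timp1 in AD-3 stood at 418 CPM, against 3.41 to 35.0 CPM in the other AD libraries, and its gap was 0.924 of the range. S100a10 in AD-HFD-4 stood at 112 CPM, against 87.5 to 87.9 CPM in the other AD-HFD libraries, and its gap was 0.982 of a narrow range. AD-HFD-4 was also the library with the highest endothelial and red blood cell markers, at 1855 and 4207 summed CPM, and the part of these in the S100a10 level was not tested.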

How the results depend on the processing

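Of the 7 genes, 3 were called in AD against Sham, 0 in AD-HFD against AD and 7 in AD-HFD against Sham. In AD against Sham the count was 5 by DESeq2, 0 by limma voom and 1 at an adjusted p under 0.01. Of all genes 6.62%, 1.39% and 0.435% were called higher in these settings. With 1 library left out the count was 1 to 4, against 0.673% to 5.75% of all genes called higher. In AD-HFD against AD the count was 3 by DESeq2, against 8.04% of all genes called higher. It was also 3 when both AD-HFD-3 and AD-HFD-4 were left out, against 5.66%. With 1 library left out it was 0 to 6, against 0% to 18.0%. In AD-HFD against Sham the count was 5 by limma voom, which called neither Lcn2 nor Gfap, against 16.5% of all genes called higher. At an adjusted p under 0.01 it was 5, against 8.49%. With 1 library left out it was 6 to 7, against 12.5% to 24.5%. With AD-3 as the only AD library (assumed to vary like the other groups), AD-HFD against AD gave Gfap at -0.31 and S100a10 at -0.68. This was the reverse of their sign over all libraries. The causes were not tested beyond the libraries named. Over single genes and settings, 20 calls were lost and 7 gained in AD against Sham, 16 gained in AD-HFD against AD and 8 lost in AD-HFD against Sham. Over all genes, AD against Sham had 1174 calls by edgeR, 2583 by DESeq2 and 894 by voom, and AD-HFD against AD had 2, 3082 and 2. The 25 other reactive genes had 5 calls by edgeR and 13 higher by DESeq2 in AD against Sham, beside 3.07% and 6.62% of all genes called higher. Scaling by library size alone moved the median log2 fold change of all genes in AD-HFD against Sham to 0.101. The correlation of same-numbered libraries ran from -0.317 to 0.0947 over 12 pairs, and 4 of 24 libraries' best matches had their own number. No pairing by number was thus seen, but differences in region and blood content could hide one. With the replicate number as a block, the counts were 1 in AD against Sham, 0 in AD-HFD against AD and 7 in AD-HFD against Sham. Of all genes 1.63%, 0.0159% and 16.0% were called higher there, with 851 genes called in AD against Sham.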
